A study of Mus musculus with 4 samples.

Results

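Genes of the Ras-ERK kinase cascade, 8 in number, were described in the brain cortex of SAMR1 mice, and 6 of the 8 (Ksr1, Braf, Araf, Map2k1, Map2k2 and Dusp6) had a row among the 19572 transcript clusters that carry 1 gene symbol. Members were found by their symbol in the platform annotation, taking the row of highest mean signal, and each of the 6 had 1 row. Signals of Ksr2 and Mapk3 were not analysed here. TCQA, or tricaffeoylquinic acid, is a polyphenol found in plants, and the treated mice took it orally each day at 5 mg/kg for 1 month, while control mice were given MilliQ water. All were male SAMR1 mice, the normally ageing control line of the senescence-accelerated mouse strains, housed individually for 4 months from 7 months of age and treated from 11 months. Each group had 2 Clariom S mouse arrays, and the labels do not say how many mice stand behind an array, so that errors reflect how far these samples lay apart, for technical or other reasons.

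In this cascade, active Ras at the membrane recruits Raf kinases, Raf phosphorylates the MEK kinases and MEK phosphorylates the ERK kinases. KSR proteins are relatives of Raf that act mainly as scaffolds, holding Raf, MEK and ERK together, while DUSP6 is a phosphatase that removes the activating phosphates from ERK and whose gene is itself switched on by ERK. In cortical neurons the cascade carries signals of neurotrophin and glutamate receptors to the nucleus and is known for its part in synaptic plasticity. The arrays measure transcripts, not the phosphorylation through which these kinases work.

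Ksr1, the scaffold, was the 1 member past the study's criteria, with 2.16-fold more signal after TCQA than after water. Its binding partners Braf and Map2k1 had values below the water arrays on both TCQA arrays, by much smaller amounts. Araf, Map2k2 and Dusp6 overlapped between the groups. The promoter windows of the 3 genes whose groups did not overlap are shown because they place these genes on the genome and let their upstream sequence be set beside their values. They run from 250 bases before to 50 bases after the start, 5′ to 3′ on the gene's strand, and come from RefSeq on GRCm38.p6. Capitals mark the letters TGACGT, the core of the cyclic AMP response element that CREB, a factor phosphorylated by kinases downstream of ERK, is known to bind, on either strand. Ksr1 lies on the minus strand at chr11:79146424-79146723 (the upstream one of 2 listed starts), Braf on the minus strand at chr6:39725414-39725713 and Map2k1 on the minus strand at chr9:64253556-64253855.
Ksr1: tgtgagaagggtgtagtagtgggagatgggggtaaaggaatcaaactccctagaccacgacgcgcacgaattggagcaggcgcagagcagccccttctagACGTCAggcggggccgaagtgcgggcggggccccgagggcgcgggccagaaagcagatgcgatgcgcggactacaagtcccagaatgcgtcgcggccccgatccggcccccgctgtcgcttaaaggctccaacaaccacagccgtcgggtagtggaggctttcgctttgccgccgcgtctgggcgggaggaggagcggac
Braf: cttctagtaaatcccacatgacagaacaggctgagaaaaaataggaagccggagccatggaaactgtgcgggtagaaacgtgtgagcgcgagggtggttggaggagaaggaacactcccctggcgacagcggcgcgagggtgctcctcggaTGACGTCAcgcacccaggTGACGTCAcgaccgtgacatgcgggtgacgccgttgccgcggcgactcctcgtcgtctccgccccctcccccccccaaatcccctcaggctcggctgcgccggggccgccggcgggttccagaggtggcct
Map2k1: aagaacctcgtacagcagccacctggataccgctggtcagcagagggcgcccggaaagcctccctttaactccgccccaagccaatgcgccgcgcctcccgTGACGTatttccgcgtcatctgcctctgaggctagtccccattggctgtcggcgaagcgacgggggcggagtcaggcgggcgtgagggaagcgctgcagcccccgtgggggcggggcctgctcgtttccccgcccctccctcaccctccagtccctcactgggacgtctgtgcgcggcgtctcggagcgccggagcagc
Braf held 2 copies of the full palindrome TGACGTCA, in which the searched letters overlap on both strands. In the windows shown, Ksr1 and Map2k1 held the 6 letters 1 time each. The window of the other Ksr1 start held them 0 times. Promoter windows were matched for 7 of the 8 named genes, 8 windows in all, and 3 of the 8 windows held TGACGT, against 7.51% of all 32851 windows. The letters GGGCGG, a GC box, stood in 6 of the 8 windows, against 35.7% of all, and CGGAAG, the core of an ETS site, in 1 of the 8, that of Dusp6, against 16.9% of all. The motifs were chosen with the members' values known, Ksr1 differed in the opposite direction to Braf and Map2k1, and such matches describe letters and not bound sites.

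The signals are log2 values that the authors made with SST-RMA, and medians of the 4 arrays lay between 6.98 and 7.04. Negative control probe sets had a median of 6.98 and a 95th percentile of 11.06, and the means of Braf (13.65), Araf (12.80) and Map2k1 (11.88) lay above that percentile. Those of Map2k2 (10.46), Ksr1 (10.05) and Dusp6 (9.17) lay between the median and the percentile, so that the size of their differences is less certain. The study called a gene changed at over 2-fold and an unadjusted p under 0.05, and by these criteria in limma 130 of 19572 rows differed (0.664%), 48 of them higher (0.245%) and 82 lower (0.419%) after TCQA. With Benjamini-Hochberg adjustment over all rows 0 passed by limma (0%), while 1443 had an unadjusted p under 0.05 (7.37%), 681 higher (3.48%) and 762 lower (3.89%). Among the 6 members 1 had an unadjusted p under 0.05 and 1 met the study's criteria, Ksr1 in both cases. Since the members were named with earlier results of these data known, the choice of Ksr1 is not independent of its difference, and its values are a description.

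Ksr1 (transcript cluster TC1100003315.mm.2, chromosome 11) had log2 signals of 10.50 and 10.71 on the TCQA arrays, against 9.57 and 9.42 on the water arrays. Both TCQA arrays were high and both water arrays low, and the lowest TCQA value stood 0.92 above the highest water value. The spread within a group was 0.22 in TCQA and 0.16 in water. Means were 10.60 ± 0.15 after TCQA and 9.50 ± 0.11 after water (SD, n = 2 each), a log2 difference of 1.11 (SE 0.20) with a 95% interval of 0.63 to 1.58 from limma. The adjusted p over all rows was 0.642 by limma. In size the difference ranked number 92 of 19572. Taking each TCQA array with each water array, 4 pairs in all, it ran between 0.92 and 1.29.

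The Raf kinases, which KSR1 binds through their related kinase domains, gave smaller values. Braf, the Raf kinase of highest basal activity, had log2 signals of 13.58 and 13.45 after TCQA, against 13.78 and 13.81 after water. Both TCQA values lay below both water values, with a gap of 0.20 between the groups. The log2 difference of Braf was -0.28 (SE 0.19), or 1.22-fold less linear signal, with a 95% interval of -0.73 to 0.17. Araf, an X-linked Raf kinase of weaker activity, had 12.79 and 12.87 after TCQA, against 12.84 and 12.72 after water. The groups of Araf overlapped, and the log2 difference was 0.05 (SE 0.19) with an interval of -0.40 to 0.50.

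Of the 2 MEK kinases, which are the substrates of Raf and the kinases of ERK, Map2k1 had log2 signals of 11.55 and 11.86 after TCQA, against 12.04 and 12.09 after water. TCQA 1 was the low array and TCQA 2 lay 0.18 below the nearest water array. The log2 difference of Map2k1 was -0.36 (SE 0.20), with an interval of -0.84 to 0.13. Map2k2 had 10.29 and 10.63 after TCQA, the lowest and the highest of its 4 values, against 10.45 and 10.48 after water. Its log2 difference was -0.01 (SE 0.21), and the interval of -0.50 to 0.49 leaves room for changes of the size seen for Map2k1.

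Dusp6, the ERK phosphatase that ERK itself induces, had log2 signals of 9.05 and 9.28 after TCQA, against 8.99 and 9.37 after water. The water arrays enclosed both TCQA arrays, with a spread of 0.39 in water and 0.22 in TCQA. The log2 difference of Dusp6 was -0.02 (SE 0.22), with an interval of -0.55 to 0.52. Adjusted p-values of the 5 partners of Ksr1 lay between 0.703 for Map2k1 and 0.995 for Map2k2 by limma.

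**Figure D1:**
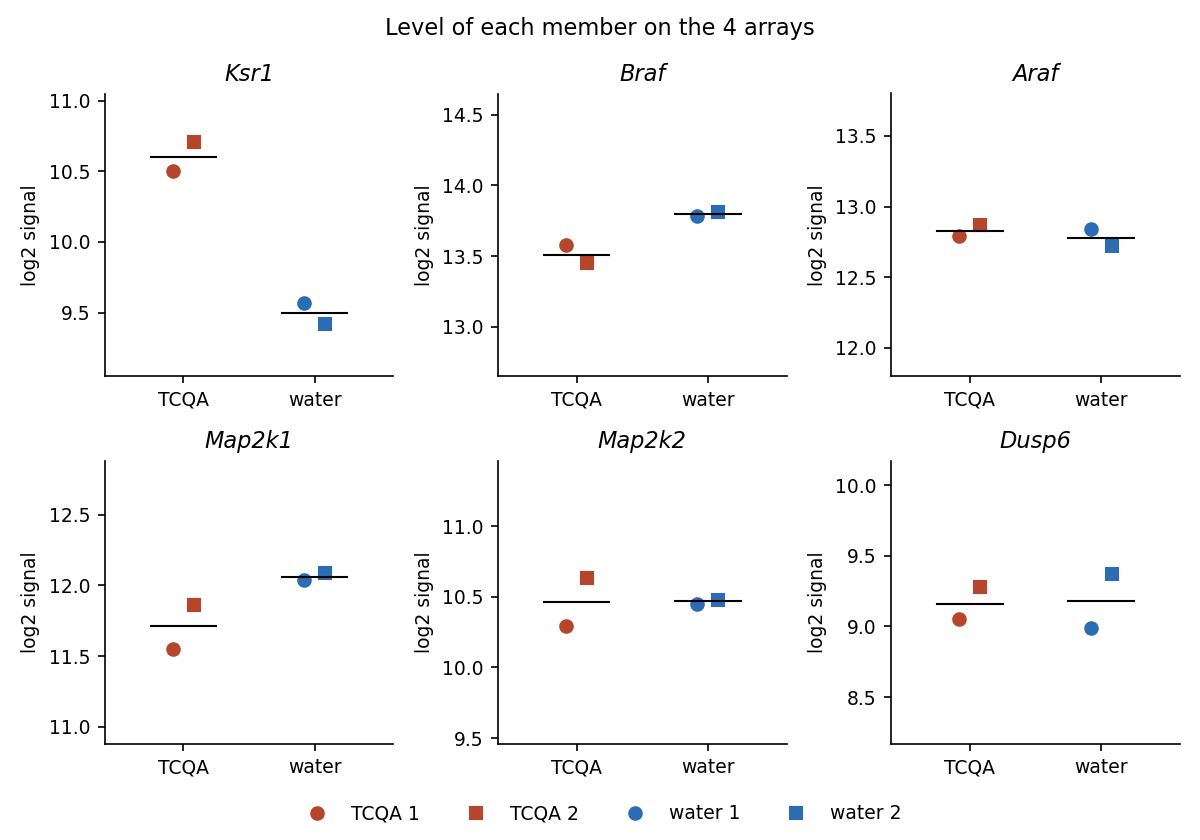
Log2 signal (vertical axes, each spanning 2 log2 units around the gene's own mean) of the 6 measured genes on the TCQA arrays (red, left) and the water arrays (blue, right), with circles for replicate 1, squares for replicate 2 and bars for group means. Ksr1 has both TCQA points at least 0.92 above the water points, Braf and Map2k1 have both TCQA points below them, and the other 3 overlap.

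Set beside each partner on the same arrays, the difference of Ksr1 exceeded that of Araf by 1.06, of Map2k2 by 1.12, of Dusp6 by 1.12, of Braf by 1.39 and of Map2k1 by 1.46 on the log2 scale. The smallest of these differences between differences in any of the 4 array pairs was 0.85, against Dusp6, and the largest was 1.66, against Braf. Around its own mean over the 4 arrays Ksr1 stood at 0.45 and 0.66 in TCQA and at -0.48 and -0.63 in water. The mean of the 5 partners stood at -0.14 and 0.02 in TCQA and at 0.02 and 0.10 in water. In each of the 4 pairs the difference of Ksr1 was thus larger than that of each partner. The groups did not overlap for 3 of 6 members, 1 higher and 2 lower, against 39.2% of all rows (19.9% higher and 19.2% lower), so that the count itself is near the background. The median log2 difference of the members was -0.01, beside 0.003 for all rows.

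With each array left out in turn, the log2 difference of Ksr1 was 1.22 or 1.00 when TCQA 1 or TCQA 2 was dropped, and 1.19 or 1.03 when water 1 or water 2 was dropped. It met the study's criteria in each of these fits, in which the lone array of a group is assumed to vary like the other group, although in the fit lacking TCQA 2 it lay at the 2-fold limit. Braf ran between -0.35 and -0.22, and Map2k1 between -0.51 without TCQA 2 and -0.20 without TCQA 1. The signs of Araf (-0.01 to 0.11), Map2k2 (-0.18 to 0.16) and Dusp6 (-0.21 to 0.18) turned with the array left out.

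**Figure D2:**
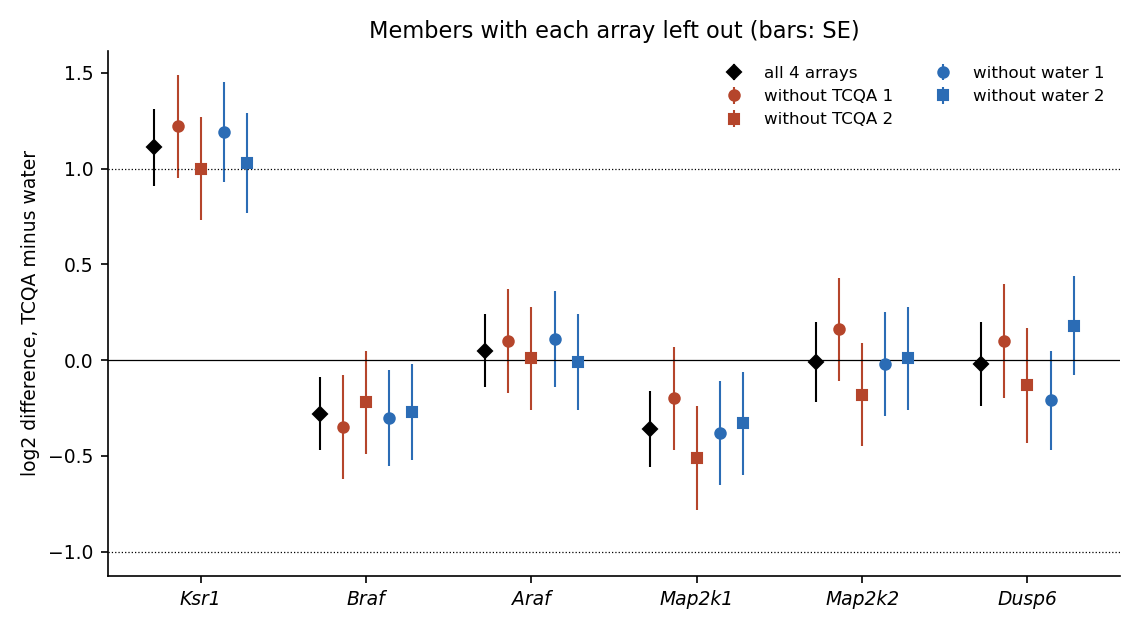
Log2 difference, TCQA minus water (vertical axis), of the 6 measured genes with all arrays (black) and with 1 TCQA array (red) or 1 water array (blue) left out, with bars for the SE of limma and dotted lines at a 2-fold change. Ksr1 stays between 1.00 and 1.22, while Araf, Map2k2 and Dusp6 lie around 0.

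Levels of marker genes of cell types and neighbouring brain regions also differed between the arrays. In bulk tissue, fewer cells of a type and less RNA per cell cannot be told apart. Choroid plexus markers were lower after TCQA for 9 of 9 measured genes, with a median log2 difference of -1.05, and 7 of the 9 had an unadjusted p under 0.05 by limma. Their summed signal, on the log2 scale, was 15.46 and 11.86 in TCQA and 17.75 and 17.29 in water. Most of it was Ttr, at 15.42 and 11.46 in TCQA and 17.72 and 17.27 in water. For 3 of the 9 the mean signal lay under the negative control median. Of the 9 genes, Kcnj13, a potassium channel, differed by -1.93 (SE 0.28) and Folr1, a folate receptor, by -2.01 (SE 0.47), or by -1.24 without TCQA 2. Striatal markers were lower for 9 of 9 genes (median -0.69, summed signal 17.56 and 17.11 in TCQA, 18.44 and 17.44 in water), led by Adcy5, an adenylyl cyclase (-0.89, SE 0.38), and Pde10a, a phosphodiesterase (-0.59, SE 0.29). Dropping single arrays gave values between -1.47 and -0.31 for Adcy5 and between -0.92 and -0.26 for Pde10a, the smallest without water 1, and an unadjusted p under 0.05 for both without TCQA 1 or without water 2. Myelin markers were lower for 7 of 9 (median -0.40, summed signal 17.39 and 17.27 in TCQA, 18.10 and 17.49 in water). Both lists were highest in water 1, and leaving it out gave medians of -0.04 for striatum and -0.10 for myelin.

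Olfactory bulb markers set TCQA 2 apart, with a summed signal of 8.63 and 11.95 in TCQA and of 9.91 and 8.83 in water. All 5 measured genes had a higher mean after TCQA (median 0.89, or -0.19 when TCQA 2 was dropped), and 3 of the 5 had mean signals under the negative control median. Markers of cortical excitatory neurons were higher for 7 of 8 genes (median 0.58, summed signal 18.95 and 18.81 in TCQA, 18.80 and 19.17 in water), among them Fezf2, a factor of deep-layer neurons, by 1.17 (SE 0.46), or by 0.44 without water 1. Without water 1 the median of that list was -0.04. Its summed signal was largely that of Camk2a, the gene that was lower. Camk2a had 18.6 and 18.42 in TCQA, against 18.52 and 18.88 in water. Thalamic, astrocyte and microglia markers had medians of -0.05, -0.21 and -0.10, with 4 of 7, 5 of 6 and 6 of 6 genes lower, and dropping TCQA 2 gave -0.72, -0.20 and 0.01. Lower with an unadjusted p under 0.05 by limma were 3 of the 7, 1 of the 6 and 1 of the 6, against 3.89% of all rows. The 3 thalamic genes were Prkcd (-1.99, SE 0.70), Tcf7l2 (-0.86, SE 0.28) and Synpo2 (-0.71, SE 0.23, at signals below the negative control median). The median of that list thus hides them, as 3 of its 7 genes were higher. Their summed signals were 12.47 and 13.12 in TCQA, against 13.57 and 12.99 in water, for thalamus, 17.17 and 17.00 against 17.24 and 17.47 for astrocytes, and 13.76 and 13.29 against 13.66 and 13.65 for microglia.

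The values of Ksr1 stand beside those of the marker lists as a description, since Ksr1 was chosen with its values known, and the part of the markers in its difference was not tested. Water 1 and water 2 differed by 0.16 in Ksr1. The mean deviation of the striatal markers was 0.95 in water 1 and -0.28 in water 2, and that of the excitatory markers was -0.67 and 0.22. TCQA 1 and TCQA 2 differed by 0.22 in Ksr1, and the olfactory bulb markers stood at -0.91 and 1.93. With both TCQA 2 and water 1 set aside, 1 array a group remained, and the difference of Ksr1 between TCQA 1 and water 2 was 1.08, with no test. In the same pair Map2k1 differed by -0.54, Dusp6 by -0.32, Braf by -0.24, Map2k2 by -0.19 and Araf by 0.07. Choroid plexus markers were lower on both TCQA arrays than on both water arrays for 7 of 9 genes, as were 19.2% of all rows. The mean deviation of that list was -0.39 and -1.13 in TCQA and 1.11 and 0.41 in water. It thus parted the groups as Ksr1 did, in the opposite direction. The pair of TCQA 1 and water 2 differed in it as well, with Ttr at 15.42 and 17.27.

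**Figure D3:**
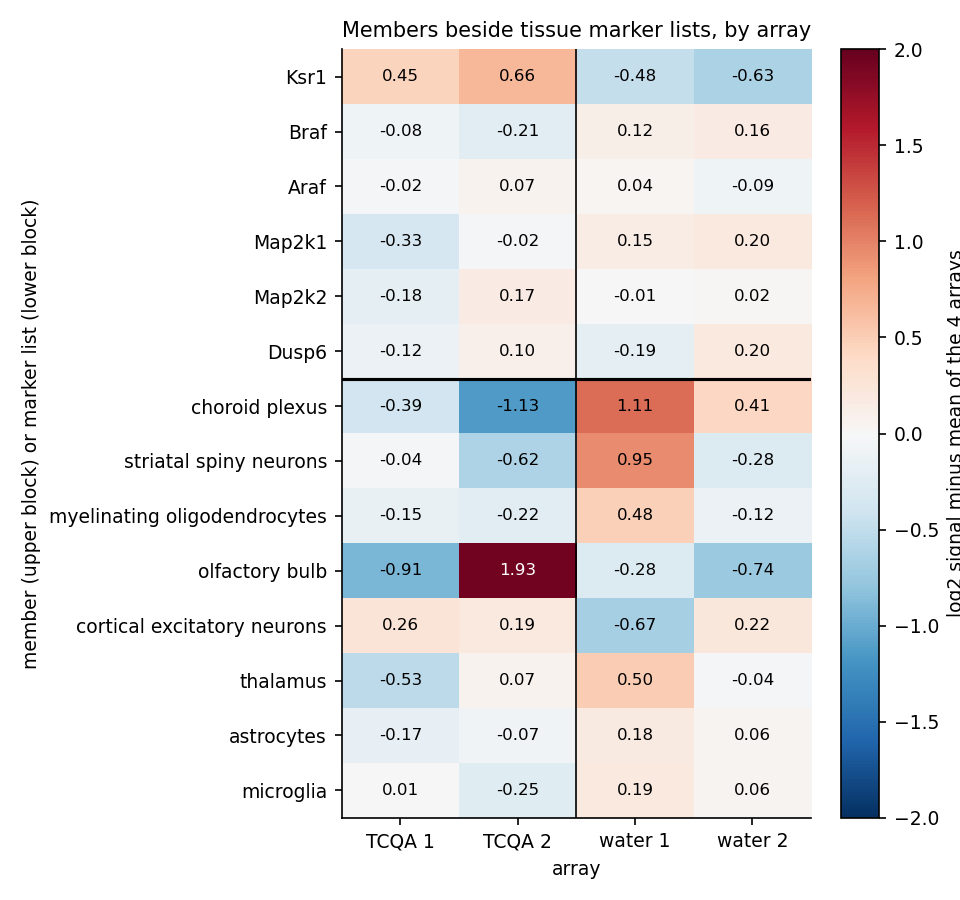
Deviation of the log2 signal from the mean of the 4 arrays (colour and printed value) for the 6 measured genes (upper block) and as a mean over each marker list (lower block), in the TCQA arrays (left columns) and the water arrays (right columns). Ksr1 is 0.45 and 0.66 above its mean in TCQA and 0.48 and 0.63 below it in water (shown as -0.48 and -0.63). Several marker lists deviate in 1 array, such as olfactory bulb markers at 1.93 in TCQA 2. Choroid plexus markers part the groups, at -0.39 and -1.13 in TCQA and 1.11 and 0.41 in water.

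The other genes of the pathway were taken from lists by role, of which 100 of 113 genes had a row. Upstream, 0 of 15 adaptors and Ras exchange factors had an unadjusted p under 0.05 by limma, against 7.37% of all rows. Their median log2 difference was -0.15. In lists as short as these a count of 0 cannot show that a list was unchanged. Rasgrf2, a calcium-regulated Ras exchange factor of neurons, had 11.59 and 11.83 after TCQA, against 11.30 and 11.40 after water, a difference of 0.36 (SE 0.20). Gab2, a docking adaptor, differed by -0.32 (SE 0.19) and Shc3, the neuronal Shc adaptor, by -0.34 (SE 0.25), or by between -0.57 and -0.12 with single arrays dropped. Of 6 measured Ras and Rap GTPases 0 had an unadjusted p under 0.05 (median 0.04), with Rap1b at 0.29, Rras at -0.28 and Nras at 0.20. Dropping water 1 gave 0.17 for Rap1b and -0.15 for Rras, and the value of Nras was -0.03 without TCQA 1 and 0.43 without TCQA 2.

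Among 16 GTPase-activating and feedback inhibitors 0 had an unadjusted p under 0.05 by limma, against 7.37% of all rows (median of the list 0.04). Nf1, the neurofibromin gene, whose product switches Ras off, had 13.15 and 13.11 after TCQA, against 13.52 and 13.54 after water, a log2 difference of -0.40 (SE 0.18, limma, adjusted p = 0.685). Its groups did not overlap, as for 39.2% of all rows, and dropping single arrays left it between -0.42 and -0.37. With a mean-variance trend, under quantile normalisation or at or above the median signal, its unadjusted p by limma was under 0.05. Spred3, a Spred-family inhibitor, and Rasa1, a Ras GTPase-activating protein, differed by 0.25 (SE 0.21) and 0.27 (SE 0.26). Spred3 stood at 0.09 without water 1 and 0.42 without water 2, and Rasa1 at 0.60 without TCQA 1 and -0.06 without TCQA 2. Of 20 other scaffolds and Raf regulators 0 had an unadjusted p under 0.05 (median 0.08, range -0.23 to 0.32). Ppp1cb, a catalytic subunit of the phosphatase that activates Raf together with SHOC2, differed by 0.25, Arrb1, a beta-arrestin scaffold, by -0.23, and Cnksr1, the KSR connector, by 0.32 at signals below the median of the negative controls. With single arrays dropped Ppp1cb ran between 0.17 and 0.33, Arrb1 between -0.34 and -0.13 and Cnksr1 between 0.13 and 0.52.

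Downstream, 0 of 10 other ERK phosphatases, 0 of 13 ERK substrates and 0 of 8 ERK output genes had an unadjusted p under 0.05 by limma. The share of all rows was 7.37%. Dusp7, which like Dusp6 acts on ERK in the cytoplasm, had 10.76 and 10.82 after TCQA, against 9.98 and 10.53 after water, a log2 difference of 0.53 (SE 0.24, limma, adjusted p = 0.683). The water arrays of Dusp7 lay further apart than the gap between the groups, and the difference was 0.26 without water 1 and 0.81, with an unadjusted p under 0.05, without water 2. Dusp1 differed by 0.20 (SE 0.18) and Dusp5 by 0.18 (SE 0.20), which was 0.33 without water 1 and 0.02 without water 2. Srf, the serum response factor, had 8.91 and 8.45 after TCQA, against 9.21 and 9.20 after water, a difference of -0.52 (SE 0.22, limma, adjusted p = 0.681). TCQA 2 was the low array, and the difference of Srf was -0.29 without it and -0.75, with an unadjusted p under 0.05, without TCQA 1. Mknk1, a kinase that ERK activates, differed by 0.35 (0.21 without water 2) and Creb1 by -0.29. Of the output genes, whose transcription rises with ERK activity in other cells, Epha4 differed by 0.36 (SE 0.21), Etv5 by 0.35 (SE 0.29) and Epha2 by -0.25 at signals below the negative control median. These values moved with the array left out, with Etv5 at -0.05 without water 1 and 0.76 without water 2, Epha4 at 0.18 without water 1 and 0.53 without water 2, and Epha2 at -0.11 without water 1 and -0.39 without water 2. The 8 output genes had a median of 0.06. With 1 array left out, medians of these 7 lists within the cascade lay between -0.22 and 0.18, and 0 to 2 genes per list had an unadjusted p under 0.05.

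The members of other MAPK branches, the ERK5, JNK and p38 kinases with their activators and scaffolds, held the 3 of 100 listed genes with an unadjusted p under 0.05, all higher after TCQA, where 3.48% of all rows were called higher at that limit. Of the 15 measured, 3 had a p under that limit, 11 had a positive difference and the median was 0.19. Mapk11, the beta isoform of p38, had log2 signals of 9.64 and 9.59 after TCQA, against 8.20 and 8.81 after water. Its difference of 1.11 (SE 0.25, limma, adjusted p = 0.642) met the study's criteria, but was 0.80 without water 1, under 2-fold. Mapk10, the JNK isoform of neurons, had 16.62 and 16.75 after TCQA, against 15.78 and 16.06 after water, a difference of 0.76 (SE 0.20, limma, adjusted p = 0.661). Mapk7, encoding ERK5, had 9.22 and 9.27 after TCQA, against 8.80 and 8.28 after water, a difference of 0.70 (SE 0.23), and its unadjusted p rose above 0.05 on dropping TCQA 1 (0.73), TCQA 2 (0.67) or water 2 (0.44). For all 3, which were named for their small p, both TCQA arrays lay above both water arrays. The same was seen for 8 of the 15 measured and for 19.9% of all rows. Mapk11 and Mapk10 were lowest in water 1, where the excitatory neuron markers were lowest as well. The part of that array's tissue in these differences was not tested.

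**Figure D4:**
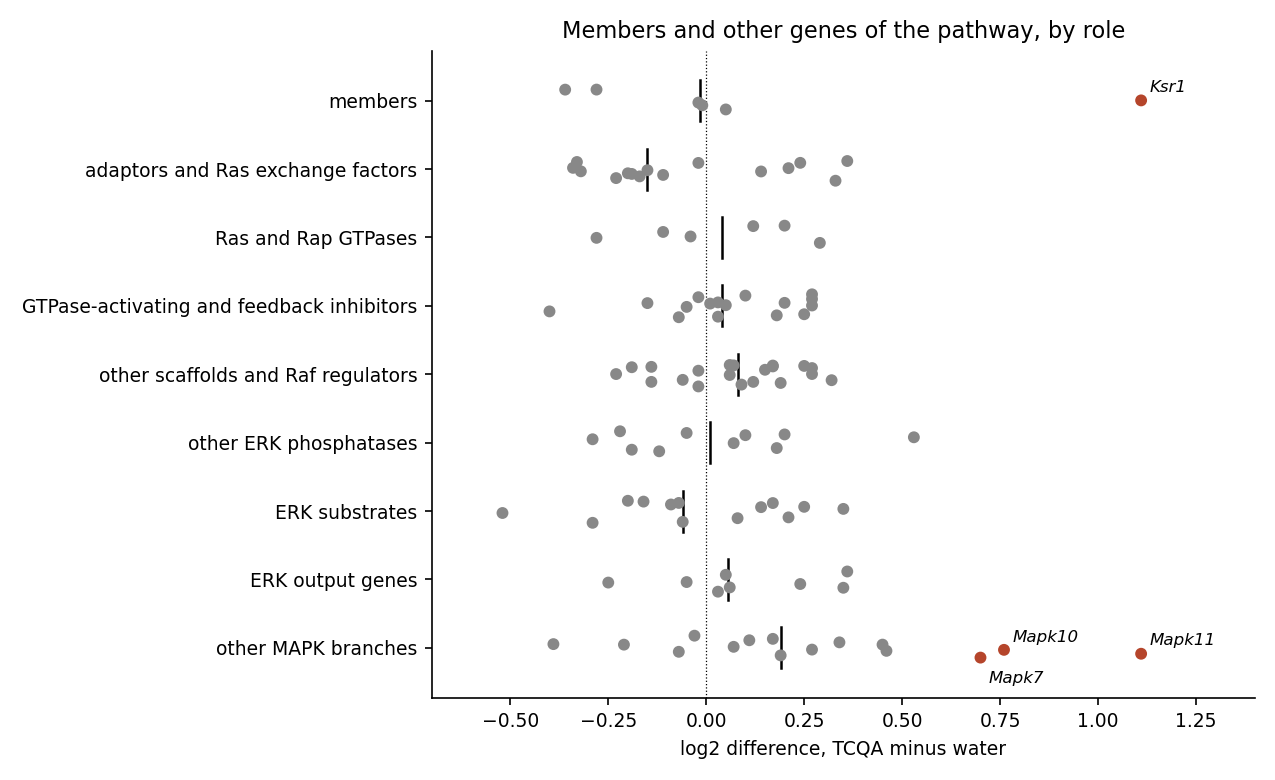
Log2 difference, TCQA minus water (horizontal axis), of the 6 measured members and of 100 other genes grouped by role (rows, a gene of 2 lists being drawn in both), with 1 point per gene and a black bar at the median of each row. Red marks genes with an unadjusted p under 0.05 in limma, which are Ksr1 at 1.11, Mapk11 at 1.11, Mapk10 at 0.76 and Mapk7 at 0.70.

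Among 9785 rows at or above the median signal, those whose 4 values, each centred on its own mean, lay nearest to Ksr1 by Euclidean distance were Gpr107 (0.138), a membrane protein of the Golgi, Fn1 (0.159), encoding fibronectin, Med16 (0.188), a Mediator subunit, Mex3b (0.194), an RNA-binding protein, and Grasp (0.195), a scaffold of glutamate receptors. Gpr107 had 9.03 and 9.24 after TCQA, against 8.16 and 8.12 after water, and Grasp had 10.90 and 11.15 after TCQA, against 9.83 and 9.95 after water. Log2 differences of the 5 genes ran between 0.97 for Mex3b and 1.22 for Med16. The median of the tested rows, 7.01, lay close to that of the negative controls, 6.98, so the signal limit does not select expressed genes. Fn1 had 7.03 and 7.06 after water, close to both medians, so that the size of its difference is less certain. With 4 arrays, of which 2 are high and 2 low, such likeness is shared by many genes that differ between the groups by about the same amount.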

How the data were processed

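Clariom S arrays were hybridised with SAMR1 mouse cortex RNA, 2 for TCQA and 2 for water. Signals were deposited on the log2 scale, 1 per transcript cluster, after SST-RMA by the authors with the Transcriptome Analysis Console (version 4.0.2) per the series' design text, and RMA and limma are named in the submitters' processing notes. SST-RMA subtracts background and equalises the arrays, so no depth per array is left, and precision is limited by having 4 arrays. No source used here gives the array's genome build.

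All 19572 rows with 1 gene symbol were fitted with limma 3.58.1 in R 4.3.3 (group term, eBayes, 2-sided) and adjusted by Benjamini-Hochberg over all rows. No row had several symbols, and of 55 symbols with several rows the one of highest mean was used. Groups came from the sample titles. The fit was tested on simulated data with independent errors, whose variances were drawn from its own fitted prior. This checks that the code recovers set changes, not how tissue differences between these arrays affect its p-values. The members and lists were chosen with earlier results of these data known. Named were all measured members, up to 3 genes of smallest p per role list, up to 2 per marker list (not all described) and the 5 rows nearest to Ksr1. An exact permutation test of 2 against 2 arrays cannot go below p = 0.333 and was not used. Alternatives covered the prior, trend, array weights, normalisation, centring, a signal filter, leaving out each array and the replicate number as a block.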

Additional observations from a re-analysis of the deposited data

How the results depend on the processing

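Over 11 alternative fits the log2 difference of Ksr1 ran between 1.00 and 1.22. Changing the prior, trend, signal filter or block cannot move that difference, which stayed at 1.11. All fits reuse the arrays on which Ksr1 was chosen, so that they are no separate support for it. In the fits that kept all arrays, 0 rows had an adjusted p under 0.05 by limma. The count of all genes past those criteria, 130 with all arrays, was 44 among rows at or above the median signal, where fewer rows were tested, and between 218 and 428 with 1 array left out, where fewer samples were fitted. The count of listed pathway genes with an unadjusted p under 0.05, 3 in the main setting, was 9 with a mean-variance trend, 5 under quantile normalisation, 6 at or above the median signal and between 4 and 6 with 1 array left out, and the cause of the first 2 was not tested. Member values under settings that kept all arrays or used the pair of TCQA 1 and water 2 numbered 54. Of these, 50 moved by less than 1 SD. Most could not move, since the prior, trend, signal filter and block leave a difference as it is. Averaging rows changed nothing either, as no member had several, so that the count is no measure of stability. The values that moved further were Araf, at -0.02 under quantile normalisation, and Map2k1 (-0.54), Map2k2 (-0.19) and Dusp6 (-0.32) in the pair. That pair was added after the data were seen. With a replicate block the count of genes was 130 and Ksr1 stood at 1.11. Same-numbered arrays did not deviate together (correlation of deviations across genes -0.003), and the block changed no member's call. With 2 arrays a group this is a single comparison, and it cannot show whether same-numbered arrays shared a batch. Signals between the median and the 95th percentile of the negative controls limit the size given for Ksr1, Map2k2 and Dusp6.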
